A study of Mus musculus with 16 samples.

Results

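Mouse soleus sampled on day 3 of a gradual fall in oxygen was compared with soleus sampled on day 0, before the fall. The members were chosen by sample title: 3 RNA samples of day 3, numbered 1, 2 and 4, and 4 RNA samples of day 0, which makes 7 of the 14 RNA samples of the series. They were hybridised to 9 of its 16 one-colour Agilent whole-genome arrays. All animals were male and all RNA was total RNA of the soleus, a hindlimb muscle rich in slow oxidative fibres; no strain, age, genotype or hour of sampling was given, and the day 0 samples carry the same hypoxia treatment label as the others. Oxygen was lowered step by step during the first week until it reached 10%, so the day 3 muscles were taken while it was still falling, and the oxygen level on that day was not stated. The other samples were taken on day 7 (3 RNA samples) and day 14 (4 RNA samples).

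Cells sense low oxygen mainly through hypoxia-inducible factors, transcription factors whose alpha subunits are hydroxylated by oxygen-dependent EGLN enzymes and degraded when oxygen is ample. When oxygen falls the subunits persist and raise genes for glycolysis, angiogenesis and erythropoiesis. The circadian clock, which also runs in skeletal muscle, is built from transcription factors of related families: CLOCK and BMAL1 (Arntl) bind E-boxes and drive Per, Cry, Nr1d and Dbp genes, PER and CRY proteins repress CLOCK and BMAL1, and DBP, TEF and the repressor NFIL3 act through D-boxes. Muscle also holds resident macrophages, fibro-adipogenic cells, endothelium, fat and blood, all of which contribute RNA to a whole-muscle extract.

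The arrays lay on 2 slides, and the slide bears on every value that follows. The 3 day 3 arrays were on slide 1 together with 2 day 0 arrays and the day 7 arrays; slide 2 held 4 day 0 arrays and the day 14 arrays. Day 0 RNA samples 1 and 2 were hybridised on both slides and were counted once each, and RNA samples 3 and 4 were on slide 2 only. The 75th percentile of the signal was 203 to 252 on the day 3 arrays, 218 to 271 on the day 0 arrays of slide 1 and 67.1 to 77.0 on those of slide 2, and 48.3 to 55.3%, 51.2 to 54.1% and 39.4 to 42.9% of spots were well above background, respectively. The slide 1 minus slide 2 difference of RNA sample 1 correlated with that of RNA sample 2 across 22126 features (r = 0.559, a description across genes, which are not replicates). A level below is a log2 signal relative to the 75th percentile of its own array, so a level of 0 equals that percentile, and a difference is the day 3 minus day 0 estimate of a limma model with day and slide as terms, in log2 units with its standard error (SE), from 3 against 4 RNA samples. Day 3 lay on slide 1 only, so this estimate follows the difference from the 2 day 0 arrays of that slide closely. In Phospho1, for example, the estimate was -1.42, beside -1.45 on slide 1 and -0.37 against slide 2. Nothing in the labels ties the samples to separate mice, so p-values measure the spread between these samples.

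Of 22126 features tested, 1348 (6.09%) passed an adjusted p of 0.05 in limma: 503 were higher at day 3 (2.27%) and 845 lower (3.82%). In all 1348 the 3 day 3 arrays lay beyond both day 0 arrays of slide 1, which was true of 43.1% of all features. That agreement was largely set by the fit, whose estimate follows the slide 1 difference, and it is no separate support. Against the 4 day 0 arrays of slide 2 the sign was kept by 926 features (68.7%), with 383 of the 503 higher and 543 of the 845 lower ones, and turned in 422. The day 3 arrays lay beyond all 6 day 0 arrays in 334 called features (1.51%), 168 higher (0.759%) and 166 lower (0.75%); over all features, called or not, 7.54% did. A total of 113 features passed with the same sign also in a fit without a slide term and in a fit without the slide 1 day 0 arrays, 54 higher and 59 lower. In the fit without a slide term, which called 260 features, the estimated correlation of arrays of 1 RNA sample was negative (-0.186) and was used as estimated. The number of calls fell to 87 without day 0 RNA sample 1 and to 10 without day 0 RNA sample 2, the samples that tie the slides; these fits used the correlation of the whole set, 0.448. It fell to 787 and 138 without day 3 RNA samples 1 and 2; it was 896 without day 7 RNA sample 1. Dbp, Slc25a47 and a pair of unnamed probes, 4 features in all, passed in each of the 7 fits that left out a day 0 or day 3 sample.

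**Figure D1:**
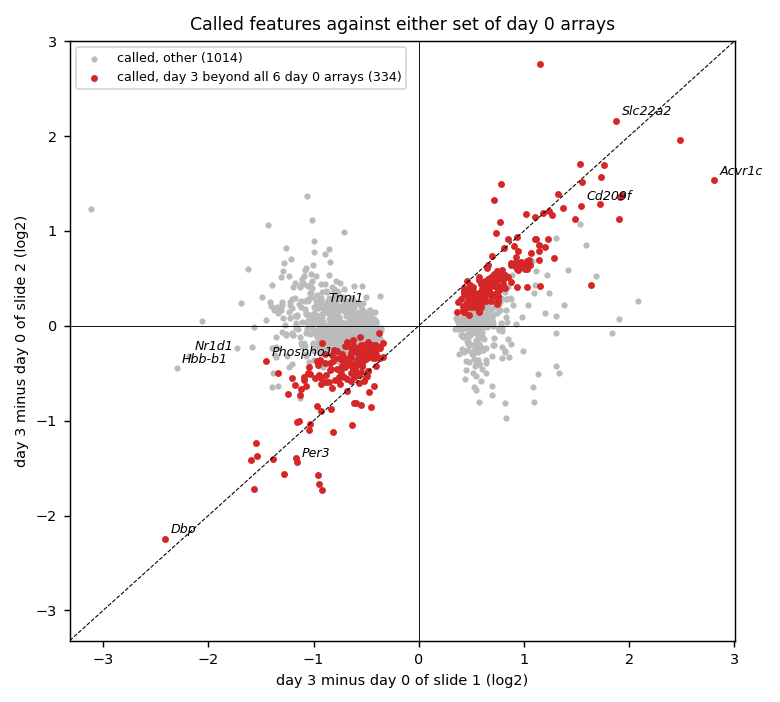
Each point is 1 of the 1348 called features, with its mean day 3 level minus the mean of the day 0 arrays of slide 1 on the x axis and minus the mean of the day 0 arrays of slide 2 on the y axis, both in log2 units; the dashed line marks equality. The 334 red points, whose day 3 arrays lie beyond all 6 day 0 arrays, keep their sign on both axes, whereas 422 features change sign on the y axis, among them Tnni1.

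The genes that fell most at day 3 and kept that direction on both slides included clock-output genes. Dbp, a transcription factor driven directly by CLOCK and BMAL1, had levels of 2.97, 2.88 and 2.87 in the 3 day 3 samples, against 4.69 and 5.93 on the day 0 arrays of slide 1 and 4.68, 6.12, 5.15 and 4.64 on those of slide 2. The groups did not overlap, and the day 3 samples differed from each other by less than the day 0 samples did. The difference was -2.30 (SE 0.35, adjusted p = 0.00819 in limma), and it passed in all 7 leave-one-out fits, where the largest adjusted p was 0.0421.

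Per3, a member of the Period family, was at -2.76, -2.41 and -2.94 at day 3, against -1.94 and -1.15 on slide 1 and -1.37, -0.65, -1.19 and -1.85 on slide 2 at day 0. All day 3 arrays were below all day 0 arrays. The difference of -1.04 (SE 0.28, adjusted p = 0.0446 in limma) passed in 1 of the 7 leave-one-out fits. Nr1d1, which encodes the repressor REV-ERB alpha, also fell in the fit, by 2.08 (SE 0.31, adjusted p = 0.00819 in limma). Its day 3 levels were 1.56, 1.62 and 2.10, far below the 3.79 and 4.09 of the day 0 arrays on slide 1. The same 2 RNA samples gave 2.32 and 2.31 on slide 2, and day 0 RNA samples 3 and 4 gave 1.87 and 1.81, so the day 3 levels overlapped the slide 2 arrays and the mean difference from them was -0.32. The direction held on both slides, but the size depended on which day 0 arrays were used.

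These 3 genes were the called members of a list of 12 measured clock-output and repressor genes (3.82% of all features were lower). In it 11 of 12 differences were negative and the median was -0.47, beside a median of 0.06 over all features. Against the day 0 arrays of slide 1 the list's median was -0.51, and against those of slide 2 it was -0.80. The fit called 2 of them without a slide term, 4 without the slide 1 day 0 arrays and 1 without day 0 RNA sample 2. In 5 of the 12 all day 3 arrays lay below all 6 day 0 arrays, beside 3.94% of all features. Beside Dbp and Per3 these were Nr1d2, Ciart and Bhlhe41, none of which passed the test. Nr1d2, the REV-ERB beta gene, was at 0.93, 0.95 and 0.59 at day 3 and between 1.13 and 1.93 on the 6 day 0 arrays (difference -0.50, SE 0.18, adjusted p = 0.103 in limma). Ciart, a repressor of CLOCK and BMAL1, was at -6.14, -5.43 and -5.41 at day 3. It was not well above background on any day 3 array, and at day 0 it was so only in RNA sample 2, at -1.24 and -1.41 on slides 1 and 2, while the other day 0 arrays lay between -4.59 and -4.30. No bound on its fall is given, because at day 0 only RNA sample 2 was well above background. Ciart did not pass (adjusted p = 0.121 in limma). Bhlhe41, another repressor of the same loop, was between -2.55 and -2.22 at day 3 and between -2.10 and -0.85 at day 0, with a difference of -0.45 (adjusted p = 0.429 in limma). The other Bhlhe41 probe gave -1.35 (SE 0.39).

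Per1 and Per2, Period genes that respond to acute stimuli as well as to the clock, did not pass. Per1 was at 3.23, 2.54 and 3.46 at day 3 and between 2.91 and 4.43 at day 0, and the groups overlapped. Per2 was at -2.65, -4.16 and -5.49 at day 3, above background on 1 of 3 arrays, and between -3.24 and -1.71 at day 0 (difference -1.65, SE 0.68, adjusted p = 0.151 in limma). Tef and Cry2 had differences of -0.17 and 0.17, both with adjusted p above the threshold (0.548 and 0.6 in limma), and Tef at day 3 overlapped day 0 on slide 1 but lay below all arrays of slide 2.

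Of 6 measured genes that run opposite to the output arm, Nfil3 rose (2.27% of all features were higher). NFIL3 represses D-box genes and competes with DBP. Its levels were 4.43, 4.15 and 3.34 at day 3, against 3.00 and 2.34 at day 0 on slide 1 and 3.26, 2.75, 2.79 and 3.37 on slide 2. Day 3 RNA sample 4 fell just below the highest day 0 array, so the groups overlapped slightly. The difference was 1.29 (SE 0.35, adjusted p = 0.0478 in limma) and passed in 1 of the 7 leave-one-out fits. Arntl, the BMAL1 gene, was at 2.15, 2.44 and 2.29 at day 3, above all 6 day 0 arrays (0.95 to 1.95), with a difference of 0.73 (SE 0.31) that did not pass (adjusted p = 0.165 in limma). Clock had a difference of 0.63 (SE 0.19, adjusted p = 0.0614 in limma). The median of the 6 genes was 0.43.

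**Figure D2:**
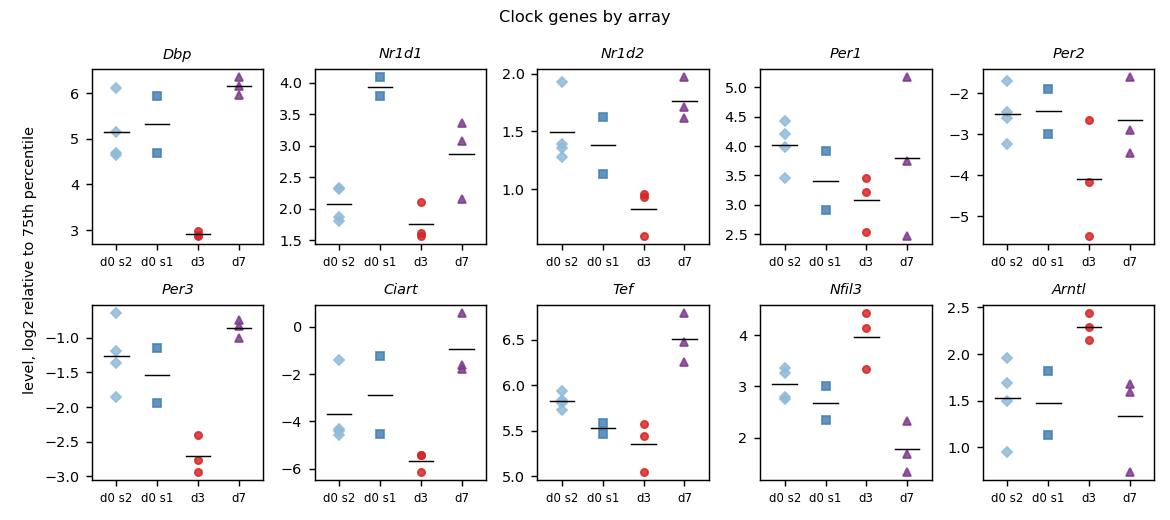
Levels of 10 clock genes on each array of day 0 on slide 2 (d0 s2, 4 arrays), day 0 on slide 1 (d0 s1, 2 arrays), day 3 (d3, 3 arrays) and day 7 (d7, 3 arrays, slide 1), in log2 units relative to the array's 75th percentile; black bars are means. The day 3 points of Dbp, Per3, Nr1d2 and Ciart lie below all others, those of Arntl lie above all others, and Nr1d1 separates from day 0 on slide 1 only.

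Day 7 was sampled on slide 1 too, so its difference from day 3 needs no step between slides. The calls below come from the fit to all arrays. With slide 1 arrays only, 0 features passed between days 7 and 3 in limma. Between days 3 and 7 Dbp returned upward by 3.25 (adjusted p = 0.00146 in limma), Per3 by 1.84 (adjusted p = 0.00675 in limma) and Tef by 1.16 (adjusted p = 0.00434 in limma), and these calls held in all 14 leave-one-out fits. Nr1d2 was 0.94 higher at day 7 (adjusted p = 0.0221 in limma). Ciart was well above background on all 3 day 7 arrays and on no day 3 array, and was at least 6.34-fold higher at day 7 (adjusted p = 0.0268 in limma); such a bound sets the mean of the brighter day against the lowest signal that counted as well above background on each dimmer array, or the probe's own where higher. Each passed in 10 of 14 such fits, and both were lost without day 3 RNA sample 1 or 4 or day 7 RNA sample 1 or 2. Cry2 was 0.84 higher (adjusted p = 0.0447 in limma, in 2 of 14 fits), and Nr1d1, at 1.1, did not pass (adjusted p = 0.0967 in limma). Nfil3 fell by 2.20 (adjusted p = 0.00965 in limma, lost without day 3 or day 7 RNA sample 1). Across all features 150 differed between days 7 and 3 (0.678%), 99 higher at day 7 and 51 lower. That number was 28 and 43 without day 3 RNA samples 1 and 4, 33, 63 and 270 without day 7 RNA samples 1, 2 and 4, 73 and 81 without day 0 RNA samples 1 and 2, and 98 without day 14 RNA sample 2. Of the 1348 features that differed between days 3 and 0, 24 also differed between days 7 and 3, and 23 of these moved in the opposite direction; the contrasts share the day 3 samples. The hour at which each group was sampled was not given, and its part in the clock-gene differences was not tested.

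The promoters of clock genes carry the sites through which this loop acts. Windows of Per3, Ciart and Tef are shown because they held an E-box or D-box, unlike those of the other clock genes searched. All 3 genes rose between days 3 and 7, but so did Dbp and Nr1d2, whose windows held neither. The sequences are RefSeq's, GRCm38.p6, each 250 bases up to the gene's start and written 5′ to 3′ on the gene's strand. Capitals mark the D-box TTANGTAA, the E-box CACGTG, and the hypoxia response motif ACGTGC where it overlaps an E-box; both strands were searched. Per3 is shown at chr4:151044666-151044915 (minus strand), Ciart at chr3:95882229-95882478 (minus strand) and the first of the Tef starts at chr15:81802423-81802672 (plus strand).
Per3: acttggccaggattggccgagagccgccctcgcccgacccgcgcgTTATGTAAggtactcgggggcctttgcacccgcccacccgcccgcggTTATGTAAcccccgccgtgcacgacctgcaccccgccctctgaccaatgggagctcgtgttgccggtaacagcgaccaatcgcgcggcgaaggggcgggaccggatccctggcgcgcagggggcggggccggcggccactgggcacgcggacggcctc
Ciart: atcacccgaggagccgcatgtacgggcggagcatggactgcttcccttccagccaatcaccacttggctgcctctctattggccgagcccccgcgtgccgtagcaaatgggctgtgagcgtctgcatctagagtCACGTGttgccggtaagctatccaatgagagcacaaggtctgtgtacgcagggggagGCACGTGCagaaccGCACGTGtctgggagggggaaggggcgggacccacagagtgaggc
Tef: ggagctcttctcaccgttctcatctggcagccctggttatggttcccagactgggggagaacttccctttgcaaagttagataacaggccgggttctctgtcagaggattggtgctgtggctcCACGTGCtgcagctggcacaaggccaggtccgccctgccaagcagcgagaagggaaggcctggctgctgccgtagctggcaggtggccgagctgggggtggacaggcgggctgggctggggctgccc
Per3 held 2 D-boxes, 205 and 158 bases before its start. Ciart held 3 E-boxes, at 116, 58 and 44 bases, and Tef held 1, at 127 bases. The windows of Dbp, Nfil3, Arntl and Nr1d2 held none of these letters, which says nothing of sites elsewhere. Among 14196 such windows of 11173 tested genes, 7.85% held the E-box, against 10.1% of the windows of genes called higher at day 3 and 8.9% of those called lower. The D-box stood in 1.43% of all windows, 1.64% of the higher and 2.23% of the lower genes, and the hypoxia response motif in 6.23%, 6.58% and 7.71%. These shares are descriptions of the windows.

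Genes of resident macrophages, long-lived tissue macrophages that carry scavenger and lectin receptors, were higher at day 3. Of 16 measured genes of this list 4 rose and none fell (2.27% of all features were higher), 15 of 16 differences were positive, and the median was 0.66. In 5 the day 3 arrays lay above all 6 day 0 arrays, beside 3.6% of all features. The list's median was 0.68 against the day 0 arrays of slide 1 and 0.66 against those of slide 2. The fit called 3 genes of the list without a slide term, 4 without the slide 1 day 0 arrays, and none without day 0 RNA sample 1 or 2. In whole muscle, more cells of a type and more RNA per cell cannot be told apart.

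Of the 4 called genes 3 encode C-type lectin receptors and the other is the chemokine gene Ccl24; 4 more lectin genes of the list, Mrc1, Cd209a, Cd209g and Mgl2, did not pass. Mgl2, a close paralog of Clec10a, had a difference of 0.01 (adjusted p = 0.979 in limma). Cd209f was at 0.41, 0.36 and 0.06 at day 3 and between -1.49 and -0.63 on the 6 day 0 arrays, with a difference of 1.55 (SE 0.23, adjusted p = 0.00819 in limma). Cd209d was at 0.73, 0.41 and 0.68, against -0.06 and -0.12 on slide 1 and -0.05 to -0.19 on slide 2, with a difference of 0.72 (SE 0.15, adjusted p = 0.0226 in limma). Clec10a, the macrophage galactose-type lectin, was at 0.35, -0.11 and 0.43, against -0.95 and -1.35 on slide 1 and -1.23 to -0.58 on slide 2, with a difference of 1.30 (SE 0.22, adjusted p = 0.0129 in limma). For these 3 genes the groups did not overlap on either slide, and all passed under the 3 treatments of the slide. Cd209f and Clec10a were lost without day 0 RNA sample 1 or 2, and Cd209d without either of these or day 3 RNA sample 1.

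Of 9 measured genes of interleukin 33 and type 2 signals 3 rose (2.27% of all features were higher), and 2 of the 9 differences were negative. Ccl24, an eosinophil-attracting chemokine made by macrophages, was at -0.64, -0.97 and -0.83 at day 3 and between -1.79 and -1.17 at day 0 (difference 0.98, SE 0.26, adjusted p = 0.044 in limma, lost in each of the 7 leave-one-out fits). Retnla, which encodes a secreted resistin-like protein induced by interleukin 4, was at 3.34, 3.38 and 3.49 at day 3 and spread from 1.63 to 2.77 at day 0 (difference 1.25, SE 0.26, adjusted p = 0.0221 in limma). Il1rl1, the receptor for interleukin 33, was at -2.17, -1.69 and -1.31 at day 3, above the -4.42 to -2.81 of day 0, where it was well above background on 1 of 6 arrays and on none of slide 2 (difference 1.92, SE 0.37, adjusted p = 0.0193 in limma). All 3 genes kept their direction against either set of day 0 arrays. The list's median was 0.51; it was 0.51 against slide 1 and 0.24 against slide 2, and 0.82 and 0.21 without day 0 RNA samples 1 and 2. Without day 0 RNA sample 2 or day 3 RNA sample 2 none of the list passed. Il33 itself had a difference of 0.58 (SE 0.21) that did not pass (adjusted p = 0.109 in limma).

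Other resident macrophage genes were higher without passing. Pf4, the platelet factor 4 chemokine, was at 2.89, 2.55 and 3.48 at day 3 and between 2.07 and 2.50 at day 0 (difference 0.66, adjusted p = 0.0818 in limma). Lyve1, a hyaluronan receptor, had a difference of 0.92 (adjusted p = 0.119 in limma), Ccl8 of 0.78 (adjusted p = 0.167 in limma) and Mrc1, the mannose receptor, of 0.51 (adjusted p = 0.25 in limma). Between days 3 and 7 several genes of the list fell on the same slide: Ccl8 by 2.29 (adjusted p = 0.00568 in limma, in all 14 leave-one-out fits), Cd209f by 1.49 (adjusted p = 0.00737 in limma, lost without day 3 RNA sample 1), Clec10a by 1.14 (adjusted p = 0.0259 in limma, in 8 of 14 fits) and Cd209d by 0.86 (adjusted p = 0.0194 in limma, in 10 of 14 fits). Pf4 fell by 1.04 and Mrc1 by 1.18 (adjusted p = 0.0326 and 0.0495 in limma, in 6 and 2 of 14 fits). The day 7 levels of Ccl8, -2.75, -1.89 and -2.37, were below all day 0 arrays.

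**Figure D3:**
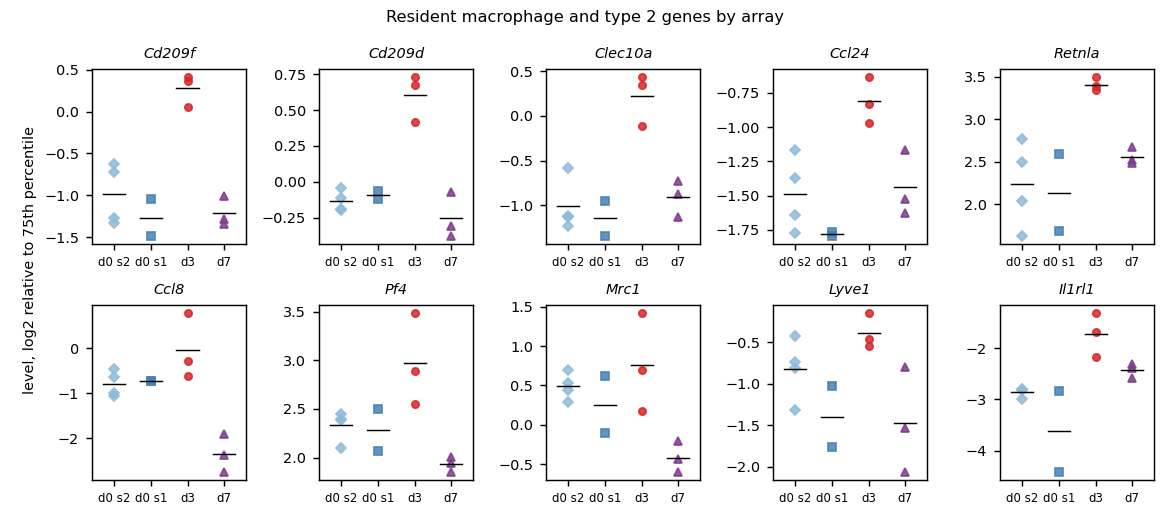
Levels of 10 genes of the resident macrophage and type 2 lists on each array, in log2 units relative to the array's 75th percentile, with the same arrays and marks as the plot of clock genes. The day 3 points of Cd209f, Cd209d, Clec10a, Ccl24, Retnla, Pf4 and Il1rl1 lie above all 6 day 0 points, and those of Ccl8, Mrc1 and Lyve1 overlap day 0.

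Markers of other immune cells were read beside these genes. Of 17 measured markers of macrophages and monocytes in general none passed, with a median of 0.28 and 12 positive; leaving out day 0 RNA samples 1 and 2 in turn gave medians of 0.61 and -0.06. The summed level of the list (the log2 of its members' summed linear signals) was 6.41 to 7.39 at day 3 and 6.84 to 7.14 at day 0. None of 10 genes of MHC class II and dendritic cells passed, and the median of 0.32 became 0.59 and -0.00 when the same samples were left out. None of 8 lymphocyte genes passed (median 0.01). Of 8 mast cell and eosinophil genes only Il1rl1 passed and 7 were positive (median 0.73). Cpa3, a mast cell carboxypeptidase, was at -0.51, -0.96 and -0.93 at day 3 and between -4.16 and -1.04 at day 0 (difference 1.22, SE 0.63, adjusted p = 0.246 in limma). Mcpt4, a mast cell chymase, had a difference of 0.99 (SE 0.36, adjusted p = 0.108 in limma). The summed level of that list was 2.33 to 2.65 at day 3, against 1.48 to 1.76 on the day 0 arrays of slide 1 and 1.19 to 2.26 on those of slide 2. Its part in the rise of Il1rl1 was not tested.

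None of 7 measured neutrophil genes passed. Their median was -0.98, and the day 3 arrays were below all 6 day 0 arrays in 4 of them, beside 3.94% of all features. Leaving out day 0 RNA samples 1 and 2 in turn gave medians of -0.45 and -1.48, and normexp background correction gave -0.40. The summed level of the list was 7.32 to 7.49 at day 3, above the 7.04 to 7.31 of day 0 on slide 1 and overlapping the 7.33 to 7.55 on slide 2. S100a8, a calgranulin, was at -2.18, -1.83 and -3.35 at day 3 and between -1.74 and 0.95 at day 0 (difference -1.55, SE 0.81, adjusted p = 0.254 in limma). S100a9, its partner, was at 0.17, 0.17 and -0.93 at day 3 and between 0.79 and 3.35 at day 0. Lcn2, lipocalin 2, had a difference of -0.98 (SE 0.33, adjusted p = 0.0879 in limma), and Elane, neutrophil elastase, of -0.39 (adjusted p = 0.119 in limma). The day 0 samples spread widely in these genes: S100a9 was at 2.12 and 2.42 in RNA sample 1 and 3.35 in sample 4, but at 0.79 and 1.19 in sample 2 and 0.91 in sample 3.

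Genes of red blood cells were lower at day 3. Of 14 measured erythroid genes 3 fell and none rose (3.82% of all features were lower), 11 of 14 differences were negative and the median was -0.50. It was -0.43 against slide 1 and -0.57 against slide 2. The fit called 5 of them lower without the slide 1 day 0 arrays, and none when the slide term or day 0 RNA sample 2 was dropped. When day 0 RNA sample 1 or day 3 RNA sample 2 was dropped 1 was called. Hbb-b2, a beta globin gene, was at 3.94, 2.97 and 3.04 at day 3, against 4.34 and 4.60 on slide 1 and 4.11, 4.38, 4.67 and 4.13 on slide 2. All day 3 arrays were below all day 0 arrays, by a narrow margin in RNA sample 1 (difference -1.19, SE 0.32, adjusted p = 0.0434 in limma, called in 1 of 7 leave-one-out fits). Hbb-b1 fell by 2.26 (SE 0.32, adjusted p = 0.00801 in limma), with day 3 levels of 3.25, 1.97 and 2.49 against 4.68 and 5.07 on slide 1. Its day 0 levels on slide 2 were 2.48 to 3.35 and overlapped day 3, and the mean difference from them was -0.44. The globin genes are near-identical copies, and how probes share their transcripts is uncertain.

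Alas2, the first enzyme of haem synthesis in erythroid cells, was at 1.16, 0.46 and 0.18 at day 3, against 1.52 and 1.95 on slide 1 and 1.06 to 1.78 on slide 2 (difference -1.16, SE 0.31, adjusted p = 0.0458 in limma, called in 2 of 7 leave-one-out fits). Hbb-bt was below all 6 day 0 arrays (difference -0.82, SE 0.30) and did not pass (adjusted p = 0.106 in limma), nor did the alpha globin Hba-a1 (difference -0.91, adjusted p = 0.0818 in limma) or Slc4a1, the band 3 anion exchanger (difference -0.57, adjusted p = 0.134 in limma). The direction of these genes was the same against both sets of day 0 arrays. How much blood each muscle held was not stated. The summed level of the erythroid list was 8.9 to 9.59 at day 3, against 9.54 to 9.87 and 9.72 to 10.3 at day 0 on slides 1 and 2. Of 15 measured iron and haem genes only Tfrc, the transferrin receptor, passed. It was at 2.58, 2.34 and 1.90 at day 3, below the 2.78 to 3.73 of all 6 day 0 arrays (difference -1.04, SE 0.28, adjusted p = 0.0439 in limma, called in 2 of 7 leave-one-out fits). The other Tfrc probes gave -0.48 and -0.26.

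Of 14 measured fibroblast and fibro-adipogenic genes 4 rose and none fell (2.27% of all features were higher), with a median of 0.51 (0.52 against slide 1, 0.27 against slide 2). Pi16, a marker of adventitial fibroblasts, rose by 0.81 (SE 0.16, adjusted p = 0.0212 in limma), with day 3 levels of 4.69 to 5.03 against 3.92 to 4.74 at day 0. Gsn, the actin-severing protein gelsolin, rose by 0.80 (SE 0.20, adjusted p = 0.0332 in limma), Lum, the collagen-binding proteoglycan lumican, by 0.69 (SE 0.17, adjusted p = 0.0326 in limma) and Cd34, a surface sialomucin, by 0.67 (SE 0.16, adjusted p = 0.0316 in limma). All 4 kept their direction on slide 2, where the differences were 0.40, 0.35, 0.13 and 0.37, smaller than the 0.85, 0.82, 0.67 and 0.67 on slide 1. The second Cd34 probe gave 0.08. No gene of the list passed in the fit without the slide 1 day 0 arrays, nor without day 0 RNA sample 1 or 2. The summed level of the list was 9.14 to 9.48 at day 3 and 8.76 to 9.43 at day 0.

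In matrix genes the fit gave 2 rises and 2 falls among 29, beside 2.27% and 3.82% of all features. Mmp3, the matrix metalloproteinase stromelysin 1, was at -2.69, -2.56 and -2.63 at day 3 and between -5.18 and -3.71 at day 0, where it was not well above background on any array. The level was at least 1.94-fold higher than on the day 0 arrays of slide 1 (adjusted p = 0.00819 in limma). On slide 2 the lowest signals that counted as well above background, -2.46 to -2.06, lay above its day 3 mean of -2.63, so no bound against those arrays can be given. It was not well above background on any day 7 array either, and was at least 1.89-fold lower there than at day 3 (adjusted p = 0.00146 in limma). Col4a1 and Col4a2, the basement membrane collagens, were lower by 0.58 and 0.84 in the fit (adjusted p = 0.0419 and 0.0179 in limma). Against the day 0 arrays of slide 2 they differed by -0.00 and -0.06, so that fall was measured against slide 1 only.

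Of 17 measured adipocyte genes 1 rose and none fell (2.27% of all features were higher). The median was 0.37, with 13 positive differences and 4 negative ones. In 5 the day 3 arrays lay above all 6 day 0 arrays, beside 3.6% of all features, and in 1, the glycerol channel gene Aqp7, they lay below (difference -0.46, adjusted p = 0.131 in limma). With normexp background correction 5 passed, and without a slide term, without day 0 RNA sample 1 or 2 or without day 3 RNA sample 2 none did. Acvr1c, an activin receptor of fat cells, passed (adjusted p = 0.0299 in limma, called in 3 of 7 leave-one-out fits). Its day 3 levels were -1.84, -1.41 and -2.46, and it was not well above background on any day 0 array (-5.31 to -2.70), so that it was at least 1.60-fold higher; the measured means were -1.90 at day 3 and -4.71 and -3.44 at day 0 on slides 1 and 2. Adipoq, adiponectin, was at 3.43, 3.20 and 2.56 at day 3 and between 1.52 and 1.74 at day 0 (difference 1.34, SE 0.44, adjusted p = 0.0828 in limma). Retn, resistin, was at 2.65, 2.26 and 1.90 against 0.68 to 1.41 (difference 1.43, SE 0.43, adjusted p = 0.0683 in limma). Plin1, the lipid droplet protein perilipin 1, had a difference of 1.45 (adjusted p = 0.0697 in limma) and Cfd, adipsin, of 1.09 (adjusted p = 0.129 in limma). In Adipoq, Retn, Plin1 and Cfd the day 3 RNA sample 4 was the lowest of the 3 and still above every day 0 array, and day 7 RNA sample 2 was also high. The summed level of the list was 9.13 to 9.68 at day 3 and 9.07 to 9.43 at day 0. How much fat each muscle carried was not stated, and its part in the following lipid genes was not tested.

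Lipid synthesis genes were mostly higher in the fit, and few of them passed. Of 21 measured genes of cholesterol and fatty acid synthesis 3 rose and 1 fell (2.27% and 3.82% of all features did). The median was 0.40 (0.30 against slide 2) and 17 differences were positive. In 5 the day 3 arrays lay above all 6 day 0 arrays and in none below (3.6% and 3.94% of all features). No gene of the list passed without a slide term, nor without day 0 RNA sample 1 or 2. Idi1, an isomerase of the mevalonate pathway, was at 0.45, 0.45 and 0.79 at day 3 and between -0.24 and 0.31 at day 0 (difference 0.79, SE 0.17, adjusted p = 0.0256 in limma). Acly, which makes cytosolic acetyl-CoA, was at 2.86 to 2.98 at day 3 and 2.27 to 2.73 at day 0 (difference 0.60, SE 0.13, adjusted p = 0.0226 in limma); its second probe gave 0.21. Me1, malic enzyme, rose by 0.40 (adjusted p = 0.0495 in limma) and was 0.09 above slide 2. Lss, lanosterol synthase, was lower by 0.61 in the fit (adjusted p = 0.0217 in limma) but 0.14 higher than the day 0 arrays of slide 2, on none of which it was well above background. Scd1, stearoyl-CoA desaturase and a gene highly expressed in fat, was at 4.10, 3.95 and 2.92 at day 3 and between 1.93 and 2.27 at day 0 without passing (difference 1.42, SE 0.48, adjusted p = 0.0925 in limma). Trf, transferrin, likewise separated (difference 1.21, adjusted p = 0.0546 in limma), and Sqle, squalene epoxidase, had a difference of 1.04 (adjusted p = 0.0995 in limma).

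Of the 30 largest changes, 3 were in carboxylesterases, enzymes that hydrolyse ester-bonded lipids and drugs; no list of that family was used. Ces1d, a triacylglycerol hydrolase, was at 0.40, 0.61 and -0.15 at day 3 and between -1.27 and -0.87 at day 0 (difference 1.31, SE 0.30, adjusted p = 0.027 in limma). Ces2c was at -1.13, -0.56 and -1.54 at day 3 and between -0.05 and 0.69 at day 0 (difference -1.48, SE 0.34, adjusted p = 0.0288 in limma); its other probes gave -1.62 and -1.30. Ces2b was at -1.85, -1.32 and -2.82 against -0.84 to -0.25 (difference -1.32, SE 0.34, adjusted p = 0.0406 in limma). None of the 3 overlapped between days on either slide, and all passed under the 3 slide treatments. Ces1d and Ces2c passed in 3 and Ces2b in 2 of the 7 leave-one-out fits, and all were lost without day 0 RNA sample 1 or 2 or day 3 RNA sample 1 (largest adjusted p of 0.229, 0.276 and 0.301 in limma). At day 7 Ces2c and Ces2b were still below day 0, by 2.07 and 1.53 (adjusted p = 0.00324 and 0.00821 in limma). The Ces2 genes are close paralogs, and probes may share their transcripts.

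**Figure D4:**
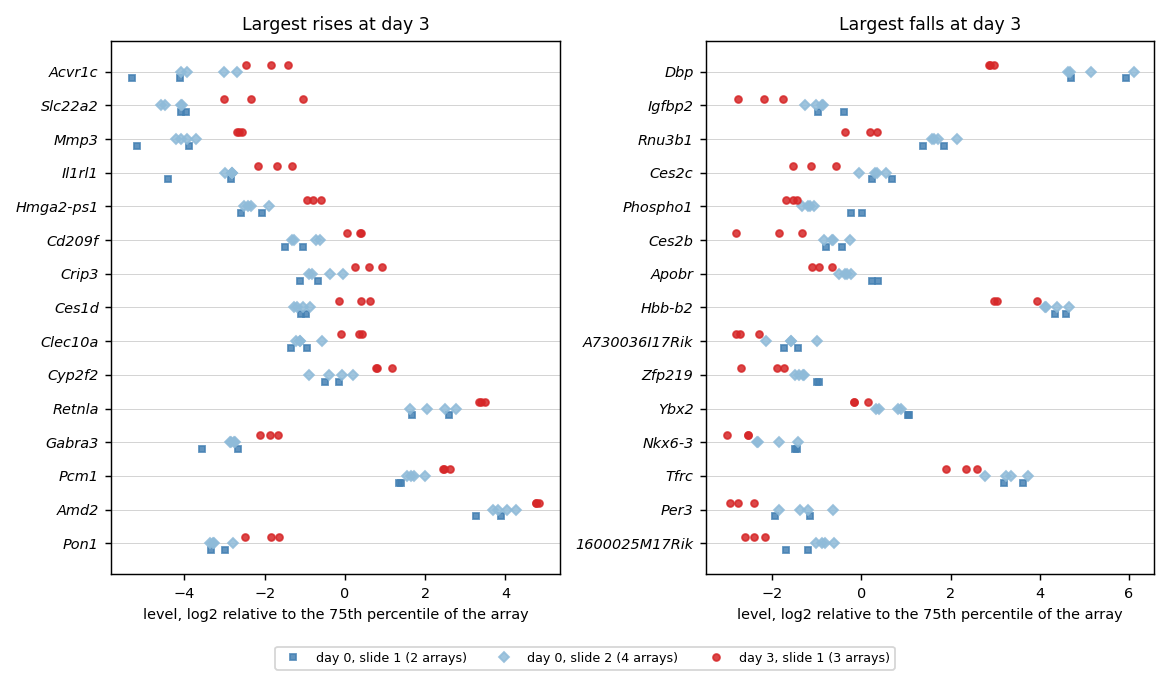
Levels on each array of the 15 largest rises (left) and 15 largest falls (right) among called genes whose 3 day 3 arrays lie beyond all 6 day 0 arrays, in log2 units relative to the array's 75th percentile. Red circles are day 3, dark squares day 0 on slide 1 and light diamonds day 0 on slide 2; for Phospho1, Apobr, Zfp219 and Ybx2 the slide 2 points lie nearer to day 3 than the slide 1 points do.

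Among the other large falls, Igfbp2, a binding protein of insulin-like growth factors, was at -2.18, -1.76 and -2.78 at day 3 and between -1.26 and -0.40 at day 0 (difference -1.52, SE 0.28, adjusted p = 0.0155 in limma). It was the 1 called gene of 14 in the insulin-like growth factor list, and Igf1 itself had a difference of 0.60 (adjusted p = 0.0882 in limma). Rnu3b1, a U3 small nucleolar RNA gene, was at 0.35, -0.37 and 0.18 against 1.39 to 2.15 (difference -1.49, SE 0.26, adjusted p = 0.0144 in limma). Phospho1, a phosphatase of matrix mineralisation, fell by 1.42 (SE 0.21, adjusted p = 0.00819 in limma); it was 1.45 lower than on slide 1, as the day 3 levels of -1.69 to -1.45 stood against -0.24 and 0.02, and -0.37 from the slide 2 mean. Apobr, a receptor for apolipoprotein B, fell by 1.21 (SE 0.20, adjusted p = 0.0117 in limma), and its difference was -1.21 on slide 1 and -0.54 against slide 2.

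The remaining large falls were Zfp219 and Nkx6-3, which encode transcription factors, Ybx2, an RNA-binding Y-box protein, and the transcripts A730036I17Rik and 1600025M17Rik. Their differences ran from -1.17 in A730036I17Rik to -1.01 in 1600025M17Rik, all with day 3 below all 6 day 0 arrays. Against slide 2 they ranged from -1.57 in 1600025M17Rik to -0.67 in Ybx2. Nkx6-3 passed in 2 of the 7 leave-one-out fits and the others in 4 or 5. Slc25a47, a mitochondrial carrier gene named because it passed in all leave-one-out fits, was at -0.04, -0.08 and -0.37 at day 3, against 0.77 and 0.90 on slide 1 and -0.29 to 0.26 on slide 2. It separated from the slide 1 arrays only, with a difference of -1.07 (SE 0.16, adjusted p = 0.00819 in limma) and -0.23 against slide 2.

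Among the other large rises, Slc22a2, an organic cation transporter, was not well above background on any day 0 array (-4.59 to -3.96), and at -2.34, -3.03 and -1.06 at day 3 it was at least 1.36-fold higher (adjusted p = 0.0304 in limma); the means were -2.14 at day 3 and -4.02 and -4.30 at day 0. Of 12 measured polyamine genes 2 rose (2.27% of all features were higher), Amd2, a copy of the S-adenosylmethionine decarboxylase gene, and Smox, spermine oxidase, and the list's median was 0.20 against slide 1 and -0.00 against slide 2. Amd2 was at 4.75, 4.84 and 4.75 at day 3 and between 3.27 and 4.25 at day 0 (difference 1.16, SE 0.20, adjusted p = 0.0131 in limma), with 1.18 and 1.01 from its other probes; the signal of its near-identical copy may be included. Smox was at 3.36, 3.39 and 3.56 against 1.94 to 2.88 (difference 1.13, SE 0.29, adjusted p = 0.0388 in limma, lost in each of the 7 leave-one-out fits), and its other probe gave 0.67.

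The pseudogene Hmga2-ps1 rose by 1.61, Crip3, a LIM-domain protein, by 1.35, Cyp2f2, a cytochrome P450, by 1.26, Gabra3, a GABA receptor subunit, by 1.20, and Pon1, a lipoprotein-bound paraoxonase, by 1.14. All 5 were above every day 0 array, and the first 3 differed from slide 2 by 1.52, 1.13 and 1.21. Gabra3 and Pon1 were well above background on 1 of 6 day 0 arrays each and on none of slide 2. Crip3, Cyp2f2 and Gabra3 passed narrowly (adjusted p = 0.0495, 0.0472 and 0.0422 in limma). These calls held in 2, 1 and 1 of the 7 leave-one-out fits, and Gabra3 did not pass without a slide term (adjusted p = 0.0554 in limma). Pcm1, a centriolar satellite protein, was at 2.45, 2.61 and 2.46 against 1.35 to 2.0 (difference 1.19, SE 0.16, adjusted p = 0.0056 in limma). The other Pcm1 probe gave -1.14, so the probes of this gene disagree and it is not read as a change of the whole gene.

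Genes of the hypoxia-inducible factor pathway held few calls at day 3. Of 29 measured targets 1 rose and 1 fell (2.27% and 3.82% of all features did), with a median of 0.06, beside 0.06 over all features, and of -0.06 against slide 2. The rise was Vldlr, the very low density lipoprotein receptor (difference 0.62, SE 0.15, adjusted p = 0.0326 in limma). It was 0.18 against slide 2, where the arrays overlap day 3, and the other Vldlr probe gave 0.20 (SE 0.22). The fall was Tfrc, given above. Vegfa, the main angiogenic ligand, was at 4.99, 4.74 and 4.17 at day 3 and between 4.43 and 4.69 at day 0 (difference 0.05, 95% interval -0.32 to 0.42). Egln3, an oxygen sensor and target, had a difference of -0.26 (interval -0.80 to 0.29) and Bnip3, a mitophagy gene, of 0.23 (interval -0.19 to 0.64). Ankrd37 lay below all 6 day 0 arrays at day 3 (-0.14, 0.15 and -0.06 against 0.25 to 0.61) without passing (adjusted p = 0.227 in limma), and rose by 0.91 from day 3 to day 7 (adjusted p = 0.0057 in limma, in all 14 leave-one-out fits).

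Of 9 measured subunits and oxygen sensors only Egln2 passed, with a rise of 0.37 (SE 0.10, adjusted p = 0.0449 in limma) and 0.09 against slide 2. Its second probe gave -0.53, and the mean of both probes turned the sign (-0.08). The call was lost in each of the 7 leave-one-out fits. Hif1a had a difference of 0.03 (interval -0.30 to 0.35) and Epas1, the HIF-2 alpha gene, of -0.05 (interval -0.44 to 0.33). Of 14 core glycolysis enzymes 1 fell in the fit: Pkm, pyruvate kinase, by 0.58, with a difference of 0.08 against slide 2. Of 20 angiogenic ligands and receptors 1 fell, Tie1, an endothelial receptor, at 1.66, 1.23 and 1.66 against 2.37 and 2.60 on slide 1 but 1.26 to 1.43 on slide 2, where the mean difference was 0.18. Hk2, hexokinase 2, had a difference of 0.12 and Pdk4, a brake on pyruvate oxidation, of 0.18, neither past the threshold (adjusted p = 0.699 and 0.79 in limma).

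Several muscle genes fell in the fit, and for most of them the fall was measured against slide 1 and not against slide 2. Of 17 measured slow fibre genes 3 fell (3.82% of all features were lower). These were Tnni1, slow troponin I, by 0.87, Ankrd2, a stretch-responsive ankyrin protein, by 0.78, and Myh7b, a slow myosin, by 0.59 (adjusted p = 0.0286, 0.0199 and 0.0331 in limma). Tnni1 was at 7.74, 7.35 and 7.59 at day 3 and at 8.37 and 8.56 on slide 1, but at 7.25 to 7.51 on slide 2, 0.19 below day 3 on average. Ankrd2 and Myh7b kept their sign against slide 2, with -0.19 and -0.29. The list's median was -0.29, and 3 of 17 genes were below all 6 day 0 arrays, beside 3.94% of all features. Myh7, the main slow myosin, was at 10.56, 10.51 and 10.22 at day 3 and between 10.36 and 10.72 at day 0 (difference 0.08, interval -0.17 to 0.32).

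Of 16 measured fast fibre genes 1 fell, Mylpf, the fast regulatory light chain, by 0.72, with 0.28 against slide 2, and the list's median was 0.09. In 3 the day 3 arrays lay above all 6 day 0 arrays and in none below, beside 3.6% and 3.94% of all features. Without the slide 1 day 0 arrays the calls were in the other direction, 3 higher and none lower. Myh2, the IIA myosin, had a difference of 0.07 (interval -0.26 to 0.41). Myh4, the IIB myosin that is scarce in soleus, was at 9.27, 9.60 and 9.29 at day 3, above every day 0 array (5.28 and 2.81 on slide 1; 5.49, 3.13, 7.19 and 3.12 on slide 2). The day 0 samples spread widely, and the difference of 5.16 (SE 1.57) did not pass (adjusted p = 0.0683 in limma). At day 7 it was high in RNA samples 1 and 4 and low in sample 2 (9.44, 9.83 and 4.31). The part of neighbouring fast muscle in the extract was not tested.

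Of 15 general skeletal muscle markers 3 fell (3.82% of all features were lower). These were Des, desmin, by 0.76, Ryr1, the calcium release channel, by 0.68, and Ldb3, a Z-disc protein, by 0.80. Against slide 2 Des and Ryr1 were 0.22 and 0.26 higher at day 3, with all 3 day 3 arrays above all 4 arrays of slide 2, and Ldb3 differed by -0.16. The other Ldb3 probe gave 0.002 (SE 0.11), so its probes disagree and it is not read as a change of the whole gene. The markers of muscle identity were high on all arrays, with a summed level of 13.1 to 13.4 at day 3 and 13.4 to 13.6 at day 0. Mstn, myostatin, was well above background on 2 of 3 day 3 arrays and on no day 0 array (-2.69, -2.88 and -2.07 against -5.03 to -3.84) and did not pass (adjusted p = 0.0539 in limma). Fbxo32 and Trim63, ubiquitin ligases of muscle atrophy, had differences of 0.13 (interval -0.33 to 0.59) and -0.09 (interval -0.55 to 0.37). Mb, myoglobin, was at 10.05 to 10.60 at day 3 and 10.25 to 10.54 at day 0 (difference -0.09, interval -0.41 to 0.22).

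The other lists held few calls, to be read beside the 2.27% of all features called higher and the 3.82% called lower. Among 49 respiratory chain and ATP synthase genes Uqcrc1 fell by 0.65 (0.00 against slide 2), and among 13 of glycogen metabolism Gys1, glycogen synthase, fell by 0.50 (adjusted p = 0.0272 in limma), below all 6 day 0 arrays. Of 66 cytosolic ribosomal protein genes 4 rose, among them Rpl38, Rps20 and Rpl22, and Rps2 fell; the median was 0.22 and, against slide 2, 0.02. Rpl38 and Rps2 lay beyond all 6 day 0 arrays, in opposite directions (0.56 and -0.35). Of 31 proteasome genes Psma7 and Psmd1 rose, with a median of 0.15. Of 9 small nucleolar and small nuclear RNA genes the host transcripts Snhg3 and Snhg6 rose by 0.54 and 0.58 beside the fall of Rnu3b1. Of 21 heat shock genes Hsp90aa1 rose by 0.60 (0.04 against slide 2). Hspb7, a small heat shock protein of muscle, fell by 0.84 (-0.26 against slide 2). Both overlapped the day 0 arrays of slide 2. Day 3 lay below all 6 day 0 arrays in 4 of the 21 and above in none (3.94% and 3.6% of all features). Of 18 genes of the ATF4 stress and serine pathway Psat1, a serine synthesis enzyme, rose by 1.0 (0.73 against slide 2). Shmt2 fell by 0.69 (0.03 against slide 2). Psat1, Hsp90aa1, Psmd1 and Rps2 were lost in each of the 7 leave-one-out fits.

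Single genes passed in several further lists. Junb, the 1 called gene of 18 immediate early genes, was lower at day 3 (adjusted p = 0.0416 in limma, called in 1 of 7 leave-one-out fits), but it was well above background on 1 of 3 day 3 arrays, 2 of 2 day 0 arrays of slide 1 and none of the 4 of slide 2. Ifi27l2a rose by 1.12 among 22 interferon-stimulated genes (0.85 against slide 2) and was lost in each of the 7 leave-one-out fits. Mef2d fell by 0.77 among 16 myogenic regulators (0.15 against slide 2). Ppp3ca, a calcineurin subunit, rose by 0.45 among 19 genes of PGC-1, Mef2 and calcineurin (0.03 against slide 2). Map1lc3a and Sqstm1, autophagy genes, fell by 0.74 and 0.59 among 18 genes of atrophy and autophagy and differed by 0.07 and 0.11 from slide 2. Of 18 endothelial markers Tie1 and Plvap fell in the fit, with differences of 0.18 and -0.03 against slide 2. Plvap overlapped the day 0 arrays of slide 2 and was called in 1 of 7 leave-one-out fits. Of 13 pericyte and smooth muscle markers Higd1b rose (0.26 against slide 2) and Des fell (0.22 against slide 2). Slc22a2 was the called gene of 13 transporters. In 11 lists no member passed. Beside the macrophage and monocyte, MHC class II, lymphocyte and neutrophil lists these were tendon (12 measured, median 0.07), Schwann cell (10, 0.19), liver and other tissue (9, -0.24), fatty acid oxidation (25, 0.09), glucocorticoid-responsive (18, 0.09), cell cycle (15, 0.26) and antioxidant genes (20, 0.14). In the glucocorticoid list, Fkbp5 was at 2.32, 1.83 and 1.57 at day 3 and between 1.15 and 3.25 at day 0 (difference -0.11, SE 0.48). Gsta3, a glutathione transferase of the antioxidant list, was above all 6 day 0 arrays (difference 1.56, adjusted p = 0.0619 in limma).

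**Figure D5:**
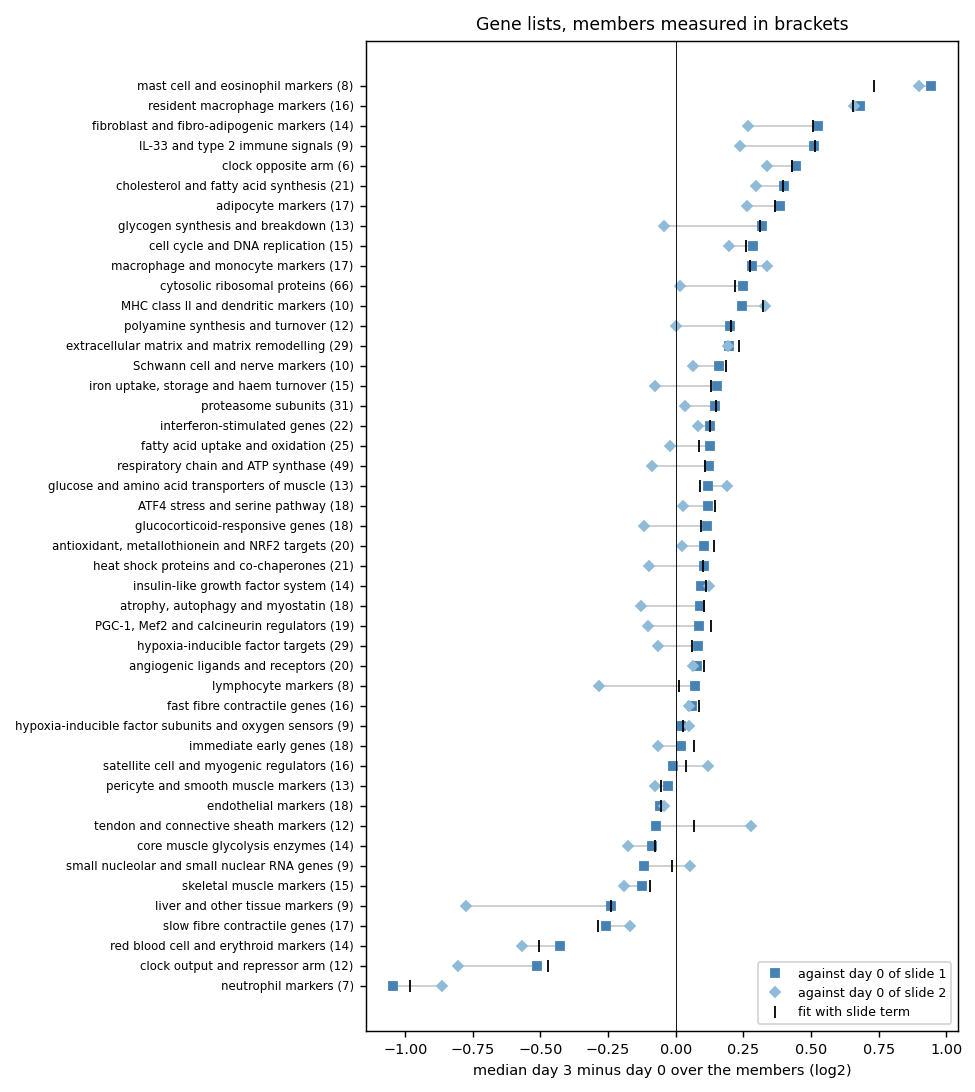
Median day 3 minus day 0 difference over the measured members of each of the 46 gene lists, in log2 units, against the day 0 arrays of slide 1 (dark squares), those of slide 2 (light diamonds) and in the fit with a slide term (black ticks). Mast cell and resident macrophage genes are at the upper end on both slides, and neutrophil, clock-output and erythroid genes at the lower end. The liver and other tissue list is also low against slide 2 (-0.78). In the fit the skeletal muscle marker (-0.09), fast fibre (0.09) and respiratory chain (0.11) lists lie near 0. The slow fibre list is at -0.29 and the ribosomal list at 0.22.

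Of the 81 called genes named here, all had the same direction within slide 1. The slide term makes the fit follow the slide 1 differences, so this was largely set in advance and is no separate support. Of the 40 that were higher, 39 kept their direction against the day 0 arrays of slide 2, with Rps20 as the exception, and of the 41 that were lower 29 did. The 12 lower genes whose direction turned were Lss, Tnni1, Tie1, Des, Ryr1, Mylpf, Pkm, Uqcrc1, Shmt2, Map1lc3a, Sqstm1 and Mef2d. The day 3 arrays lay beyond all 6 day 0 arrays in 28 of the higher and 17 of the lower genes; the rule for naming genes asked for this in the 30 largest.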

How the data were processed

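RNA of each soleus was labelled with Cy3 and hybridised to Agilent mouse arrays of 55681 probes, per the labels. The deposited scanner files, written by Agilent Feature Extraction 11.0.1.1 per the file headers, hold the intensity of each spot; the processed signal, which that software had background-corrected, was used. Intensities were divided by the 75th percentile of each array and taken as log2; control spots and outlier-flagged spots were left out. The deposited series table, also as intensity and with scale and centring not stated, was used as an alternative only: its column medians were 45.1 to 46.4, and its log2 values correlated at 0.965 to 0.988 with those of the scanner files of the same arrays, in the same direction.

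A probe entered the tests if it was well above background on 3 or more of the 16 arrays, and each gene was represented by its brightest probe. This gave 22126 features, of which 14088 had a gene name. Accessions were matched to RefSeq's GRCm38.p6 gene table, which named 27656 probes (49.7%). No coordinates of the array's probes are given; the promoter windows carry RefSeq's GRCm38.p6 coordinates. limma 3.58.1 in R 4.3.3 was fitted to all 16 arrays with terms for day and slide, and arrays of 1 RNA sample were treated as a random block (correlation 0.448), with Benjamini-Hochberg adjustment over all features at 0.05. The script was tested on simulated data. Intervals are at 95%. Arrays give no counting depth, and the number of samples limits the precision; no probe's level is set against another's.

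Named genes were taken from 122 that met a rule. The rule took up to 15 rises and 15 falls beyond all day 0 arrays and a set of core genes. It also took up to 3 called members in each direction for each of 46 lists. Not all of the 122 are given, and the core gene Myh1, a fast myosin, is among those left out. A further 30 were named after their values were seen. The members and lists were chosen with earlier results of these data known. A list is described by counts and its median, without a set test. Alternatives changed the slide term, samples, background correction, scaling, dim-probe filter and probe summary, or left out each RNA sample. The background alternative used the median spot signal in place of the planned mean signal, which was not used here.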

Additional observations from a re-analysis of the deposited data

Results flagged for a closer look

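Differences between days 3 and 7, both sampled on slide 1, passed in the limma fit to all arrays in 15 of the genes described. In these genes the day 3 effect against day 0 and the day 7 effect against day 0 differed. With slide 1 arrays only, 0 features passed between days 7 and 3 in limma. Upward from day 3 to day 7 went Dbp by 3.25 (adjusted p = 0.00146), Per3 by 1.84 (0.00675), Tef by 1.16 (0.00434), Nr1d2 by 0.94 (0.0221), Cry2 by 0.84 (0.0447) and Ankrd37 by 0.91 (0.0057), and Ciart by a fitted 4.72 (0.0268), whose size is not measured because no day 3 array was well above background. Downward went Ccl8 by -2.29 (adjusted p = 0.00568), Nfil3 by -2.20 (0.00965), Cd209f by -1.49 (0.00737), Mrc1 by -1.18 (0.0494), Clec10a by -1.14 (0.0259), Pf4 by -1.04 (0.0326) and Cd209d by -0.86 (0.0194), and Mmp3 by a fitted -2.59 (0.00146), whose size is not measured because no day 7 array was well above background. The difference held in all 14 leave-one-out fits for Dbp, Per3, Tef, Ankrd37, Mmp3 and Ccl8.

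A single day 0 array of slide 2 stood apart from the other 3 in 3 genes. Ciart was at -1.41 in RNA sample 2, with the nearest array at -4.30; the same RNA gave -1.24 on slide 1. Pf4 was at 2.10 in RNA sample 2, with the nearest at 2.39. Il1rl1 was at -2.99 in RNA sample 3, with the nearest at -2.81, and none of these 4 arrays was well above background for it. Chance sets about 1 in 20 groups apart in this way.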

How the results depend on the processing

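The number of features that differed between days 3 and 0, 1348 in the reported fit, was 260 without a slide term (with the negative same-RNA correlation of -0.186 as estimated), 2072 without the slide 1 day 0 arrays, 739 from the day 0 and day 3 arrays alone, 3491 with normexp background correction (1656 higher, 1835 lower), 403 with no filter on dim probes and 2622 from probes that all arrays detected (1282 higher, 1340 lower). With slide 1 arrays only it was 0 in limma, where 4555 features had an unadjusted p under 0.05; 5 residual degrees of freedom were left. Leaving out single RNA samples gave 10 to 1711; without day 0 RNA sample 1 or 2 the correlation of 0.448 was kept. With quantile normalization, the percentile over detected probes, the mean over probes and the series table it was 1140 to 1718. The number that differed between days 7 and 3, 150 as reported, was 62, 730, 44 and 436 without a slide term, with normexp, with no filter and from probes that all arrays detected, 0 with slide 1 arrays only, and 28 to 270 in leave-one-out fits; it could not be fitted from the day 0 and day 3 arrays.

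Of the 81 called genes named, 79 kept their call and sign with normexp, and 24 did so without a slide term. Without the slide 1 day 0 arrays the sign turned in Lss (0.14), Tnni1 (0.19), Tie1 (0.18), Des (0.22), Ryr1 (0.26), Mylpf (0.28), Pkm (0.084), Uqcrc1 (0.0033), Shmt2 (0.026), Map1lc3a (0.067), Sqstm1 (0.11), Mef2d (0.15) and Rps20 (-0.010), where day and slide cannot be told apart, and with the mean over probes in Egln2 (-0.080). The cause was not tested. The median difference of all features was -0.04 without those arrays, against 0.06.

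The deviations of day 3 and day 0 samples with the same replicate number correlated at 0.05, 0.08 and -0.10 for numbers 1, 2 and 4. Samples with unlike numbers gave -0.25 to 0.17. So few samples cannot exclude a pairing, and the labels state none. With the replicate block 1339 features differed between days 3 and 0 and 44 between days 7 and 3. Dim signal limits the genes listed as not well above background, where size is a bound or is not given.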
